A study of Mus musculus with 14 samples.

Results

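The clustered protocadherins of the mouse are 57 of 21887 protein-coding genes of the RefSeq table used here (mm10), chosen by their symbols (Pcdha, Pcdhb or Pcdhg followed by letters or digits) on chromosome 18. 14 of them form the Pcdha cluster (chromosome 18, 36930285 to 37188897), 22 the Pcdhb cluster (37264998 to 37521419) and 21 the Pcdhg cluster (37661775 to 37841873). Their chromatin was read by chromatin immunoprecipitation and sequencing (ChIP-seq) in bone marrow progenitors of C57BL/6 mice, enriched by depletion of lineage-positive cells. Knockout (KO) cells lacked Utx, also called Kdm6a, and wild-type (WT) cells carried it. H3K27me3 and H3K27ac were each measured in 2 KO and 2 WT libraries. UTX was measured in 2 WT libraries, and the background was a single IgG library, which its title ties to a BCOR precipitation. The labels do not say which cells drive the deletion, how old the mice were, or whether libraries came from separate animals, so p-values measure the spread between libraries, which may be technical. The study asked how loss of UTX, a demethylase of H3K27, changes these 2 marks.

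Clustered protocadherins are cell-surface adhesion proteins known mainly from neurons, where each cell switches on a few of them and the combination gives the cell an identity. In Pcdha and Pcdhg each gene has its own large variable exon with its own promoter, which is spliced to constant exons shared by the whole cluster. Pcdhb genes are single exons with no shared constant part. Most variable promoters are chosen at random in a neuron, with the help of CTCF and cohesin, whereas the C-type genes (Pcdhac1, Pcdhac2, Pcdhgc3, Pcdhgc4 and Pcdhgc5) are used more uniformly. H3K27me3 is the mark that Polycomb repressive complex 2 lays down at silent genes, H3K27ac marks active promoters and enhancers, and UTX removes H3K27me3 and also works within the KMT2C and KMT2D enhancer complexes.

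The deposited data are islands, that is stretches enriched in reads, each with its read count. H3K27me3 libraries held 2347442 and 2507004 reads in 15743 and 14665 islands in KO (replicates 1 and 2), against 2743508 and 2455803 reads in 18847 and 20412 islands in WT. H3K27ac libraries held 14763744 and 11121847 island reads in KO and 9330823 and 15256696 in WT, UTX libraries 816567 and 1834418, and the IgG library 154029. H3K27ac lay at 10 of 10 markers of haematopoietic progenitors in every library of that mark. Of 10 markers of neurons and glia it lay at 1 and 1 in KO and at 2 and 3 in WT. Of 8 markers of stroma and endothelium 3 (Cdh5, Pecam1 and Kdr) were marked in each library, while Col1a1, Col1a2, Dcn, Cxcl12 and Lepr had no H3K27ac island in any. The Kdm6a gene itself had 2674 and 2059 H3K27ac reads in KO and 1840 and 1562 in WT, and does not check the genotype because islands do not show a deleted exon.

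The 3 clusters carried the marks unequally. H3K27me3 islands lay in Pcdha and Pcdhg in all 4 libraries, and H3K27ac islands lay only in Pcdhg, towards its 3′ end. Pcdhb was almost bare: none of its 22 genes met an H3K27ac island, and 1 H3K27me3 island of 36 reads, in WT replicate 2, touched Pcdhb19 and Pcdhb20. UTX was not found in its 2 libraries together at any member.

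**Figure D1:**
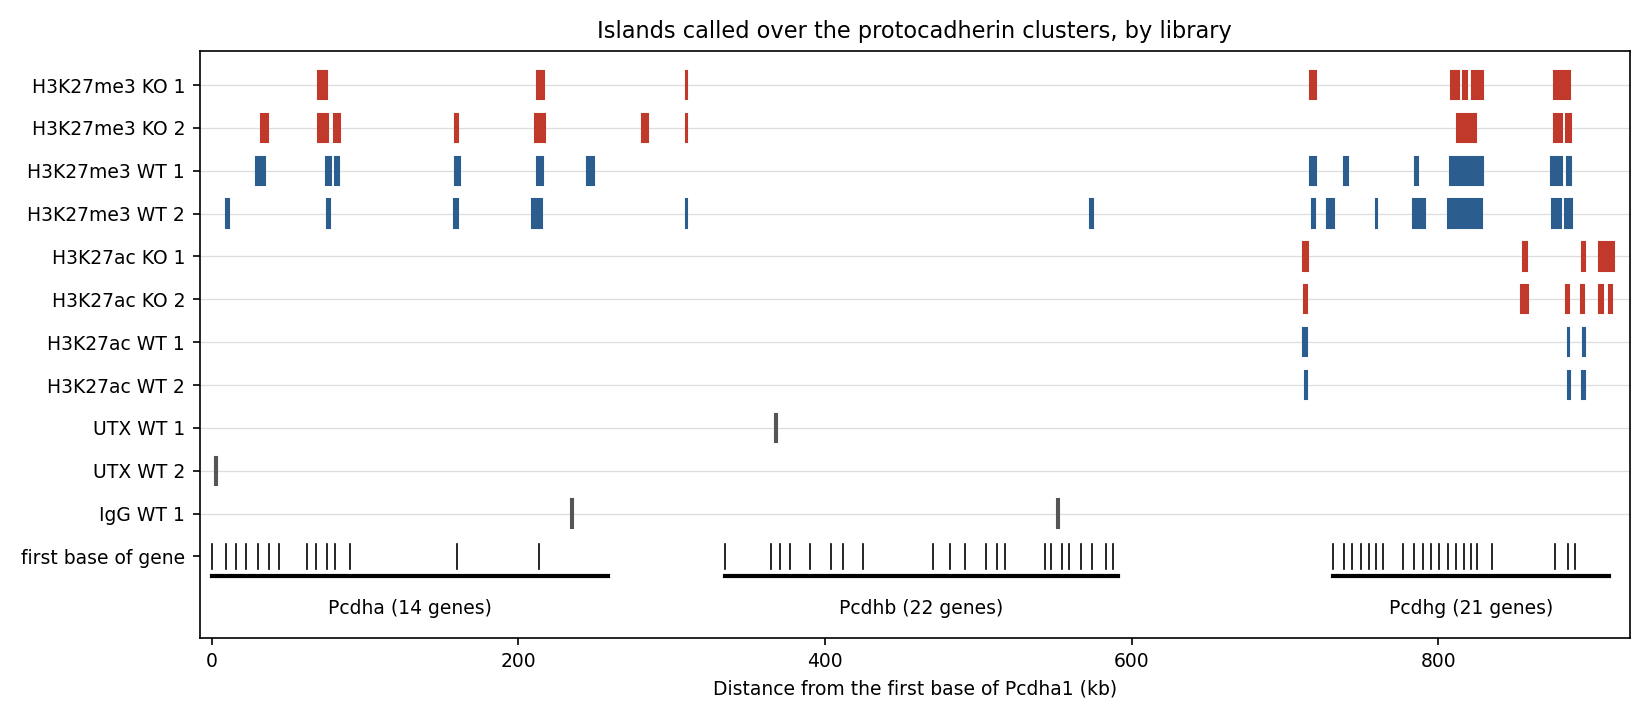
Islands of each of the 11 libraries (rows) along the 3 protocadherin clusters, as distance in kb from the first base of Pcdha1. Each box is an island drawn at its width, KO in red, WT in blue, UTX and IgG in grey, and ticks in the lowest row are the first bases of the 57 genes. H3K27me3 lies in Pcdha and Pcdhg, H3K27ac lies at the right end of Pcdhg and, between the clusters, at Taf7, and Pcdhb holds 1 H3K27me3 island.

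In Pcdhg, H3K27me3 islands covered less of the cluster in KO than in WT, while Pcdha showed no such separation. The share of the Pcdhg interval (first to last base of the cluster plus 2 kb on each side) under H3K27me3 islands was 12.6% and 11.2% in KO and 17.3% and 22.3% in WT. The means were 11.9% ± 1.0 in KO and 19.8% ± 3.54 in WT (SD, n = 2 each). The groups did not overlap, and the exact permutation test over the 4 libraries (two-sided) gave p = 0.33, the smallest it can give with 2 libraries a group. Islands in Pcdhg numbered 6 and 4 in KO and 10 and 10 in WT. In covered length KO stood to WT as 0.601 in Pcdhg and as 0.810 over all islands of the genome (86.2 ± 13.2 Mb in KO, 106.4 ± 15.9 Mb in WT). The difference between these 2 ratios was not tested. With the same number of strongest islands taken from each library, the difference in the share of Pcdhg (KO minus WT) was -3.48 percentage points, against -7.88 with all islands.

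Read counts separated the genotypes less than covered length did. Pcdhg held 257 and 201 H3K27me3 rpm (reads per 1000000 island reads of the library) in KO and 251 and 344 rpm in WT, and the groups overlapped (exact permutation p = 0.667). The difference in rpm (KO minus WT), -68.5 with all libraries, was -115.2 without WT replicate 1, -21.8 without WT replicate 2 and -40.6 without KO replicate 2, and -14.0 with equal island numbers. Reads per covered kb of Pcdhg were 26.0 and 24.5 in KO and 21.6 and 20.6 in WT, against 30.6 and 26.2 in KO and 23.3 and 25.8 in WT over all H3K27me3 islands. In Pcdha the covered share was 3.66% and 8.68% in KO and 9.52% and 5.10% in WT, with 116 and 207 rpm in KO and 188 and 134 rpm in WT. Both Pcdha measures overlapped between the genotypes (exact permutation p = 0.667 for the share and 1 for the rpm).

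**Figure D2:**
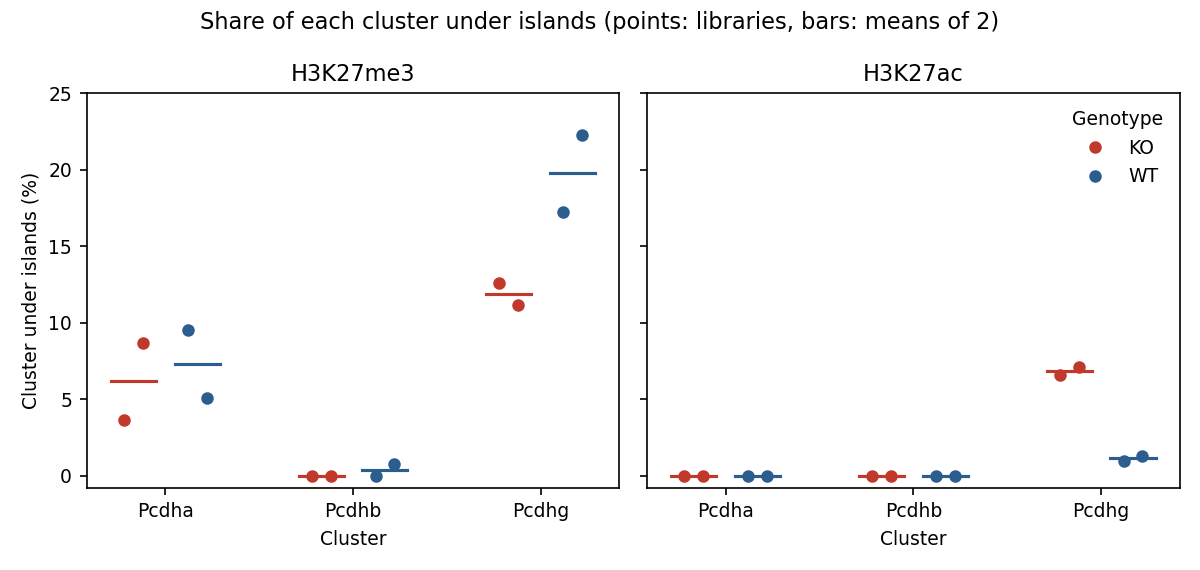
Percent of each cluster (horizontal axis) under islands of H3K27me3 (left) and H3K27ac (right), with a point for each library, KO in red left of WT in blue, and a bar at the mean of 2 libraries. In Pcdhg the KO points lie below the WT points for H3K27me3 (11.9% in KO and 19.8% in WT on average) and above them for H3K27ac (6.83% in KO and 1.14% in WT); in Pcdha the H3K27me3 points of the genotypes overlap and H3K27ac is at 0.

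Because the spans of Pcdha and Pcdhg genes nest and end together at the constant exons, most members of a cluster share the same islands. Those spans run from 22328 bp (Pcdhgc5) to 257373 bp (Pcdha1), and the shares of all genes below are not matched for length. Counted by span plus 2 kb, 34 and 34 of the 57 members met an H3K27me3 island in KO and 34 and 37 in WT, against 27.2% and 28.0% of all protein-coding genes in KO and 30.3% and 31.4% in WT. These were 14 of 14 Pcdha genes in every library, and 20 or 21 of 21 Pcdhg genes. No member lost H3K27me3 by this count, that is, had an island in both WT libraries and in neither KO library (1.95% of all genes did), and none gained it (0.429% of all genes). The end of each gene that is its own, the start of its variable exon, separates the members. A window of 2 kb either side of that start was therefore read for the 35 Pcdha and Pcdhg genes.

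H3K27me3 lay at some of the variable exons in each library. 8 of the 35 starts met an island in all 4 libraries: Pcdha10, Pcdhac2, Pcdhgb6, Pcdhga10, Pcdhgb7, Pcdhga11, Pcdhgc3 and Pcdhgc4. Another 2, Pcdhac1 and Pcdhga9, were marked in 3 libraries, 4 in 2, 7 in 1, and 14 in none. The 5 C-type starts were all marked in at least 1 library and 3 of them in all 4, but Pcdhgc5 counts only through 5 reads in WT replicate 2. Of the other 30 starts 16 were marked in at least 1 library and 5 in all 4. The count per library was 3 and 7 of 14 Pcdha starts in KO and 5 and 4 in WT, and 7 and 6 of 21 Pcdhg starts in KO and 9 and 12 in WT. Of 17492 gene starts on other chromosomes, 19.4% and 20.7% were marked in KO and 22.2% and 23.1% in WT. The share of those starts marked in all 4 libraries is not given here. The starts of Pcdhgb6, Pcdhga10, Pcdhgb7 and Pcdhga11 lie in 1 merged region of 23 kb, so their marks are not separate occurrences.

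Pcdhac2, the last variable gene of the alpha cluster, held the most H3K27me3 of any start. It had 120 and 136 reads in KO and 139 and 170 in WT, or 51.2 and 54.2 rpm in KO and 50.8 and 69.3 rpm in WT. The islands over it were denser in reads per kb than 85.5% and 85.3% of all H3K27me3 islands of their libraries in KO, and than 96.0% and 95.3% in WT. Pcdhac1, the other C-type alpha gene, had no island in KO replicate 1, 41 reads in KO replicate 2, and 58 and 42 reads in WT. The KO libraries disagreed with each other at Pcdhac1, and KO replicate 2 lay within a read of the lower WT library.

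Pcdhgc3, the first C-type gene of the gamma cluster, had 81 and 105 reads at its start in KO and 81 and 128 in WT. Pcdhgc4, the next one, had 75 and 74 reads in KO and 74 and 83 in WT. At both starts the values of the genotypes overlapped. Pcdhgc5, the last, was touched only by the edge of an island in WT replicate 2 (5 reads).

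The other marked starts differed between libraries, also within a genotype. In Pcdhg, Pcdhga1, Pcdhgb2 and Pcdhgb4 were marked only in WT replicate 2 (40, 21 and 40 reads) and Pcdhga2 only in WT replicate 1 (42 reads). Pcdhga7 had no island in either KO library and 36 and 43 reads in WT, the only start marked in each WT library and in neither KO library (1.48% of gene starts on other chromosomes met that count). No Pcdhg start was marked in KO alone. In Pcdha, Pcdha2 was marked in WT replicate 2 only (32 reads), Pcdha5 by 1 read in KO replicate 2 and 53 reads in WT replicate 1, and Pcdha6 in KO replicate 2 only (21 reads). Pcdha11 had no island in KO replicate 1, 56 reads in KO replicate 2, 49 in WT replicate 1 and none in WT replicate 2. Pcdha9 was marked in each KO library and in neither WT library (0.354% of gene starts on other chromosomes met that count), but with only 2 and 8 reads, from the edges of islands in KO that lie mostly between Pcdha9 and Pcdha10.

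**Figure D3:**
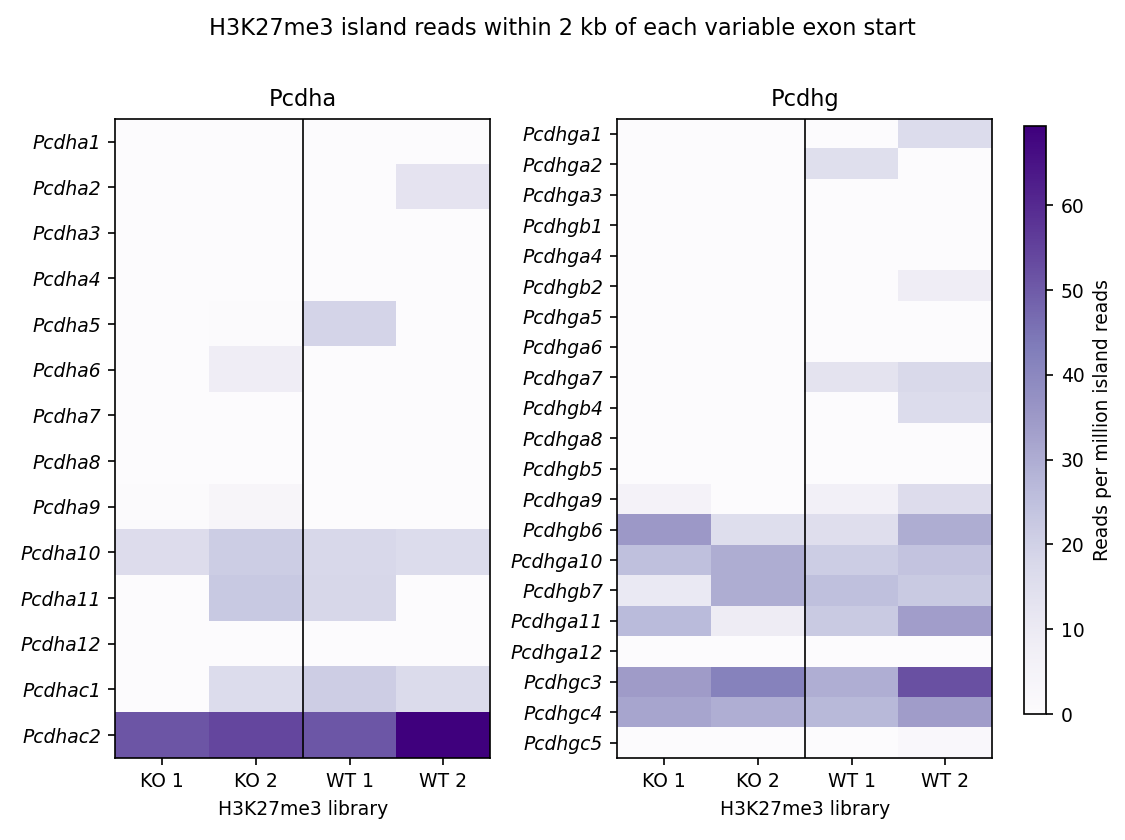
H3K27me3 island reads in rpm (colour scale) within 2 kb of each variable exon start of Pcdha (left) and Pcdhg (right), genes in genomic order down the page and libraries across, KO left of WT. Pcdhac2 is darkest in all 4 libraries, Pcdhgc3 and Pcdhgc4 are filled in all 4, a block runs from Pcdhgb6 to Pcdhga11, and the first Pcdhg exons are filled only in WT libraries.

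The tests of H3K27me3 signal found no change that passed in any cluster. Islands of the 4 libraries were merged where they overlapped, and 6771 regions with an island in every library were tested with edgeR; 0 were higher in KO and 1 was lower (0.0148% of those tested). 517 regions had an unadjusted p under 0.05, and DESeq2 called 33. 5 tested regions lay in the clusters, 2 in Pcdha and 3 in Pcdhg, and 0 of them were called by edgeR or DESeq2, with 1 at an unadjusted p under 0.05.

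The widest region ran over Pcdhga9, Pcdhgb6, Pcdhga10, Pcdhgb7 and Pcdhga11 (37736601 to 37759600, 23 kb). It held 318 and 226 reads in KO and 332 and 380 in WT (log2 fold change -0.41, SE 0.266, edgeR adjusted p = 0.765). Scaled by edgeR to 1000000 reads in tested regions, these were 164.1 and 110.5 CPM in KO and 165.2 and 198.8 CPM in WT. Both KO values in CPM were below both WT values, as in 18.8% of tested regions. In rpm the groups overlapped, with 135.5 and 90.1 in KO and 121.0 and 154.7 in WT.

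At the Pcdha9 to Pcdha10 region (36999401 to 37008200) the values ran the other way, with 109 and 108 reads in KO and 64 and 40 in WT (log2 fold change 1.04, SE 0.424, edgeR adjusted p = 0.582). Per covered length the same region gave -0.06, since islands there were wider in KO. The Pcdhac2 region (37138801 to 37147600) had 164 and 224 reads in KO and 170 and 208 in WT, a log2 fold change of 0.01 with SE 0.332. The Pcdhgc3 region (37803601 to 37812600) had 210 and 201 reads in KO and 183 and 199 in WT, a log2 fold change of 0.08 with SE 0.310. The region over Pcdhgc4 and towards Pcdhgc5 (37813001 to 37817800) had 75 and 77 reads in KO and 74 and 100 in WT, a log2 fold change of -0.22 with SE 0.413. The smallest edgeR adjusted p among the 5 regions was 0.582.

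A further region that covered Pcdhga7 and reached Pcdhgb4 (37713801 to 37718600) had islands in WT only, with 49 and 68 reads. It was 1 of 8 merged H3K27me3 regions in Pcdhg, and 6.50% of the 27722 merged regions of the genome had islands in both WT libraries only. It did not enter the main test, because it has no island in KO. When an island in at least 2 libraries sufficed it did not pass (edgeR adjusted p = 0.133). That fit counts the absent KO islands as 0 reads. No region of the clusters had H3K27me3 islands in both KO libraries only (1.86% of merged regions).

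Over whole gene windows, with island reads shared out by the part of the island inside the window, 34 of the 57 members had H3K27me3 reads in all 4 libraries and were tested among 4906 genes. edgeR called 0 genes in either direction (0% of genes tested, with 416 at an unadjusted p under 0.05), and DESeq2 called 50, of which 0 were members. The median log2 fold change of the 34 was -0.18, against -0.002 over all genes tested. 28 were negative and 6 positive, but members of a cluster share their reads. The values ran between -0.45 (SE 0.223) at Pcdhga1 and 0.07 at Pcdhgc3. In 10 members both KO libraries were below both WT libraries in CPM, as in 20.1% of genes tested.

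For H3K27ac, KO libraries carried islands in the gamma cluster that WT libraries lacked. The covered share of Pcdhg was 6.56% and 7.10% in KO and 0.978% and 1.30% in WT, on average 6.83% ± 0.384 in KO and 1.14% ± 0.230 in WT (SD, n = 2 each; exact permutation p = 0.33, the smallest possible). The cluster held 401 and 493 H3K27ac reads in KO and 79 and 127 in WT, which is 27.1 and 44.3 rpm in KO and 8.47 and 8.32 rpm in WT. Reads per covered kb went the other way, with 33.2 and 37.7 in KO and 43.9 and 52.9 in WT. Over the whole genome the length under H3K27ac islands was 159.8 ± 15.7 Mb in KO and 164.0 ± 18.3 Mb in WT, a ratio of 0.975, against 5.99 in Pcdhg. Pcdha and Pcdhb had no H3K27ac island in any of the 4 libraries, so no fold change can be given there. The same 21 members, all of Pcdhg, met an H3K27ac island by span in each library, so 0 were lost (1.42% of all genes) and 0 gained (1.08%).

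All 21 Pcdhg genes were called higher in KO in the gene-window test of H3K27ac, where 8.60% of the 12350 genes tested were higher in KO and 10.0% lower. These are not 21 separate results, since all the spans contain the same few islands. The windows take reads outside islands as 0, so these calls and fold changes count 3 regions with no WT island, described next, as 0 reads in WT. They are ratios of island reads, not of all reads, and the only region with an island in all 4 libraries had a log2 fold change of 0.01. For the 18 genes from Pcdhga1 to Pcdhga12 the reads were 401 and 493 in KO and 79 and 127 in WT, with a log2 fold change of 2.03 (SE 0.275, edgeR adjusted p = 0.00956). Pcdhgc3 and Pcdhgc4 start further on and had 302 and 302 reads in KO and 79 and 127 in WT (log2 fold change 1.45, SE 0.225, edgeR adjusted p = 0.0137). Pcdhgc5 had 302 and 231 reads in KO and 40 and 67 in WT (log2 fold change 2.19, SE 0.225, edgeR adjusted p = 0.00545). DESeq2 also called 21 of 21. The calls rested on both WT libraries: without WT replicate 1 only 1 Pcdhg gene passed, and without WT replicate 2 none did, nor did any other gene of the genome. The log2 fold change at Pcdhga1 without those libraries was 1.99 and 2.07.

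5 H3K27ac regions made up this signal, and they did not behave alike. 1 of them, at 37823601 to 37825800, which begins 4.06 kb after the start of Pcdhgc5, had an island in all 4 libraries. It held 60 and 61 reads in KO and 40 and 67 in WT (log2 fold change 0.01, SE 0.291, edgeR adjusted p = 0.985; 12.0% of 18820 tested regions were higher and 14.0% lower). A second region, over the start of Pcdhgc4 (37813801 to 37816000), had no island in KO replicate 1, 71 reads in KO replicate 2, and 39 and 60 in WT. It overlaps the H3K27me3 region of Pcdhgc4, and it was the only variable exon start of the 3 clusters with any H3K27ac island. No start was therefore lost (1.07% of gene starts on other chromosomes) or gained (0.749%).

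The other 3 regions had islands in both KO libraries and in neither WT library, as did 5.18% of the 34766 merged H3K27ac regions of the genome; 0 of the 5 had islands in the WT libraries alone (9.28% of the genome's regions). The first (37784201 to 37789000) lies between Pcdhga12 and Pcdhgc3, 22.2 to 17.4 kb before the start of Pcdhgc3, and held 99 and 191 reads in KO. The second (37835201 to 37838400) lies near the shared 3′ end of the cluster and held 123 and 111 reads in KO. The third (37839401 to 37845200) runs over the end of the cluster into Diaph1, a formin gene, and held 154 and 63 reads in KO. The end of Diaph1 nearer the cluster lies 1.73 kb past it. A separate region further into Diaph1 (37846401 to 37850800) lay outside the cluster interval. It held 127 and 83 reads in KO, 83 in WT replicate 1 and none in WT replicate 2.

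An absent island is not 0 reads, so neither a fold change nor a test is given for the 3 KO-only regions by themselves. At the lower of the KO rpm values the 3 regions would have held 63, 78 and 53 reads in WT replicate 1 and 102, 127 and 86 in WT replicate 2. The smallest H3K27ac islands of those libraries had 18 and 24 reads. That minimum is over islands of any width, and the settings of the island caller are not given. It therefore cannot show whether stretches as wide and thin as these would have been called in WT. The KO islands were thin for their libraries, denser in reads per kb than only 1.67% to 42.5% of all islands there.

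**Figure D4:**
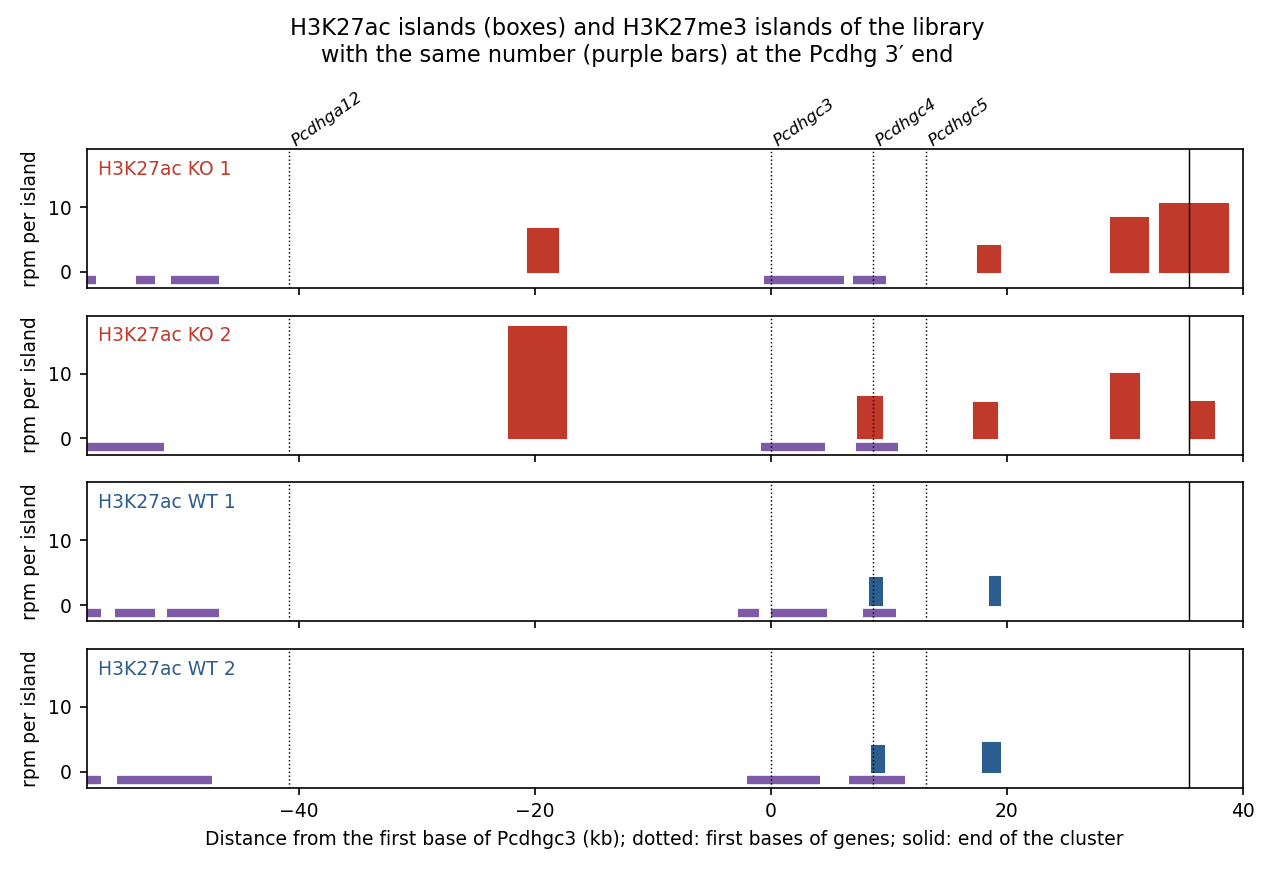
H3K27ac islands at the 3′ end of Pcdhg, one panel a library, KO above WT, with distance from the first base of Pcdhgc3 (kb) across and island reads in rpm as the height of each box. Purple bars are H3K27me3 islands of the library with the same number. All 4 libraries share the island after Pcdhgc5, while the islands 22.2 to 17.4 kb before Pcdhgc3 and at the end of the cluster appear in KO only and stand clear of the H3K27me3 bars.

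No H3K27me3 island overlapped the 3 KO-only H3K27ac regions in any library. Among other values that differed between these H3K27ac libraries, the summed level of the stroma and endothelium markers was 379 and 416 rpm in KO and 265 and 266 rpm in WT, all from Cdh5, Pecam1 and Kdr. 2 of these 3, Cdh5 and Pecam1, were called higher in KO (8.60% of all genes tested were). Kdr went the other way, with 71 and 68 reads in KO and 95 and 135 in WT. It did not pass (log2 fold change -0.85, edgeR adjusted p = 0.0857). The part of stromal or endothelial cells in the Pcdhg signal was not tested. Of the 10 haematopoietic markers, all tested, Ptprc and Spi1 were higher and Kit lower (8.60% and 10.0% of all genes tested). The summed level of the neuron and glia markers was 18.7 and 19.6 rpm in KO and 34.2 and 38.5 rpm in WT. Its members went different ways. In KO it came from Map2 alone, with 276 and 218 reads in KO and 0 and 81 in WT. Tubb3 (131 and 86 reads in WT) and Gfap (188 and 421) had islands in WT only. In these bulk libraries more marked cells and more mark per cell cannot be told apart.

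UTX itself, read in WT cells only, had no island shared by its libraries at any member. 0 of the 57 members met an island in each UTX library while free of IgG islands, against 37.7% of all protein-coding genes. UTX replicate 1 had 1 island in the clusters, of 25 reads at Pcdhb2 and Pcdhb3, and UTX replicate 2 had 1, of 48 reads at the start of Pcdha1. The IgG library had 1 island in Pcdha (31 reads) and 1 at Pcdhb16 and Pcdhb17 (44 reads). Island calls, not all reads, were deposited, so weaker UTX binding was not detectable here.

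The 12 non-clustered protocadherins, which stand alone in the genome with their own constant parts, gave a contrast within the family. All 12 had H3K27me3 islands in each of the 4 libraries, and 0 passed the edgeR test (median log2 fold change 0.004). Summed over the 12, H3K27me3 was 1206 and 1369 rpm in KO and 988 and 1275 rpm in WT. Only 2 carried H3K27ac, Pcdh7 in all 4 libraries and Pcdh12 in WT alone (48 and 85 reads).

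Pcdh7, an adhesion gene of chromosome 5, fell in H3K27ac. It had 196 and 179 reads in KO and 843 and 1203 in WT (log2 fold change -2.58, SE 0.155, edgeR adjusted p = 0.00396). The log2 fold change ran from -2.72 to -2.46 when 1 library was left out. Pcdh7 did not pass without WT replicate 2, where no gene of the genome did. Its H3K27me3 was 373 and 338 reads in KO and 166 and 197 in WT, and did not pass (log2 fold change 0.98, SE 0.238, edgeR adjusted p = 0.387). Both KO values in CPM were above both WT values, as in 20.8% of genes tested. The direction in H3K27ac was thus opposite to that of the Pcdhg windows, and the difference between the 2 was not tested.

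Of the 17 genes beside or between the clusters, 15 were tested for H3K27ac, with 1 higher in KO and 1 lower (8.60% and 10.0% of all genes tested). Their median log2 fold change was -0.07, against 0.007 over all genes tested. Cd14, the lipopolysaccharide co-receptor of monocytes, was higher, with 163 and 104 reads in KO and 43 and 63 in WT (log2 fold change 1.18, SE 0.273, edgeR adjusted p = 0.0382). That call ended under DESeq2, with the windows at 0 or 5 kb, and when any 1 library was left out. Hars, the histidyl-tRNA synthetase gene, was lower, with 653 and 421 reads in KO and 892 and 1686 in WT (log2 fold change -1.38, SE 0.172, edgeR adjusted p = 0.00831). Its log2 fold change ran from -1.53 to -1.22 when 1 library was left out. Hars did not pass without WT replicate 2, where no gene of the genome did. The nearest neighbours did not pass: Taf7, a TFIID subunit gene between Pcdhb and Pcdhg, had 779 and 549 reads in KO and 461 and 617 in WT (log2 fold change 0.14, edgeR adjusted p = 0.539). Diaph1 had 3481 and 2738 reads in KO and 1860 and 3855 in WT (log2 fold change 0.03, edgeR adjusted p = 0.905).

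Of 22 known regulators of protocadherin choice or silencing, 21 were tested for H3K27ac, with 0 higher and 4 lower in KO (8.60% and 10.0% of all genes tested; median log2 fold change -0.16). Stag1 and Smc1a encode cohesin subunits. Stag1 had 1828 and 1689 reads in KO and 2164 and 3736 in WT (log2 fold change -0.85, edgeR adjusted p = 0.0148), and Smc1a had 622 and 474 reads in KO and 577 and 974 in WT (log2 fold change -0.62, edgeR adjusted p = 0.0302). Wapl, which releases cohesin from DNA, was at -0.51 (1349 and 1041 reads in KO, 1142 and 2014 in WT, edgeR adjusted p = 0.0455). Wiz, a zinc-finger partner of the G9a methyltransferase, was at -0.93 (921 and 609 reads in KO, 980 and 1681 in WT, edgeR adjusted p = 0.0139). With 1 library left out, log2 fold changes ran from -0.99 to -0.72 for Stag1 and from -0.69 to -0.55 for Smc1a. For Wapl they ran from -0.62 to -0.41 and for Wiz from -1.05 to -0.84. Wapl and Smc1a kept their call in none of these fits, and Stag1 and Wiz not in all. Without WT replicate 2 no gene of the genome passed, so losing a call there is not particular to these genes. Wapl also did not pass over the span alone (log2 fold change -0.23), nor Wiz with 5 kb of flank (-0.40).

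The other tested regulators did not pass. Ctcf, the insulator protein that binds the variable promoters, had a log2 fold change of 0.15 (edgeR adjusted p = 0.415). The cohesin subunit gene Rad21 was at -0.04, the silencing factor gene Smchd1 at -0.19, and the DNA methyltransferase gene Dnmt3b at -0.16. Of the regulators only Lhx2, Smc1a and Tet1 had H3K27me3 in all 4 libraries, and 0 of the 3 passed.

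Of 11 signalling partners of protocadherins, all tested for H3K27ac, 0 were higher and 2 lower in KO (8.60% and 10.0% of all genes tested; median log2 fold change -0.07). Ptk2, the focal adhesion kinase held in check by protocadherin tails, had 118 and 94 reads in KO and 249 and 479 in WT (log2 fold change -1.88, SE 0.209, edgeR adjusted p = 0.00655). Nckap1, a subunit of the WAVE actin regulator, had 229 and 144 reads in KO and 312 and 440 in WT (log2 fold change -1.17, SE 0.190, edgeR adjusted p = 0.0152). Over the span alone Nckap1 did not pass (log2 fold change -1.03). With 1 library left out, log2 fold changes ran from -2.03 to -1.70 for Ptk2 and from -1.33 to -1.05 for Nckap1. Neither call was kept in every such fit, but without WT replicate 2 no gene of the genome passed. Kdm6a, Kdm6b and Ezh2 were all tested and 0 of the 3 passed. For H3K27me3, 0 genes of any list passed in either direction.

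**Figure D5:**
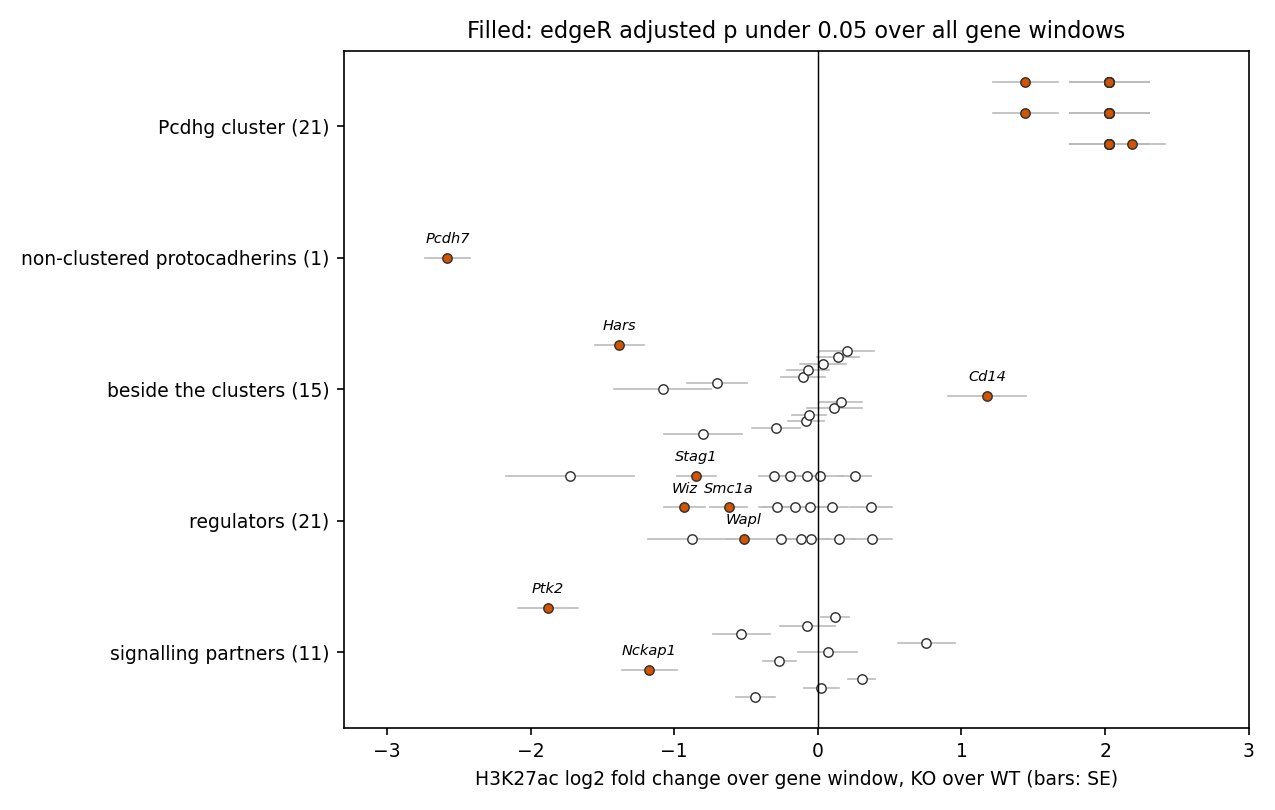
H3K27ac log2 fold change over gene windows, KO over WT (horizontal axis, grey bars are SE), for the Pcdhg genes and 4 lists, with the number of tested genes in brackets; filled points passed edgeR at an adjusted p under 0.05, and height within a list only separates the points. The 21 Pcdhg genes lie at 1.45 to 2.19 and share their islands, Pcdh7 lies at -2.58, and of the other lists 1 gene is filled on the higher side and 7 on the lower.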

How the data were processed

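Per the submitters' processing notes, islands were called with SICER on mm10. The deposited files list each island of a library with its counts, whole numbers of reads; SICER's version, gap, threshold and control, the aligner and the treatment of reads that match several of these similar genes are not given in the sources used here. 3 samples (2 inputs and an IgG) were not used here. Islands on chromosomes 1 to 19, X and Y were used, with RefSeq genes of mm10.

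Overlapping islands (at least 1 bp) of a mark's libraries were joined into regions. Regions, and gene windows (span plus 2 kb, reads shared out by overlap and rounded), entered edgeR (version 4.0.16, R 4.3.3) if all 4 libraries had reads there. The edgeR test was the two-sided quasi-likelihood one after TMM scaling, with a Benjamini-Hochberg threshold of 0.05, and was checked on simulated counts. Log2 fold changes are KO over WT. Cluster values were compared by exact permutation. Alternatives were DESeq2 1.42.0, island-read totals, filters, other windows, covered length, left-out libraries and a replicate block. The table gives no strand; the variable exon start was taken as the end of a span that the members do not share.

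Named genes are all members, the genes beside the clusters, non-clustered protocadherins, regulators, signalling partners, Kdm6a, Kdm6b, Ezh2 and 3 marker lists. Members and lists were chosen with earlier results of these data known. Pcdhgb8, annotated as a pseudogene, and read-through genes are not members.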

Additional observations from a re-analysis of the deposited data

How the results depend on the processing

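The higher H3K27ac share of Pcdhg in KO kept its direction in the alternatives run for it (4.74 to 6.34 percentage points). Its gene windows had no alternative per covered length. Of these windows, 0 to 21 of 21 were called when 1 library was left out, against 0 to 606 higher and 0 to 867 lower among all genes. Gained Pcdhg genes numbered 21 when each library was cut to the same number of strongest islands. Their spans share the same few islands, so these are not 21 separate results, and the share of all genes gained at that setting was not counted. 3 Pcdhg regions counted as higher when an island in at least 2 libraries sufficed, a call that their selection through KO islands alone fixes. H3K27ac regions of the genome called higher numbered 174 and lower 283 per covered length, 1227 to 1392 higher and 1369 to 1907 lower without 1 library, and 5225 lower with an island in at least 2 libraries, against 2258 and 2631. The region after Pcdhgc5 gave -0.74 per covered length and -0.20 to 0.21 without 1 library. Diaph1 gave -0.039 with 5 kb and -0.17 to 0.27 without 1 library, and Kdm6a -0.11 to 0.74.

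For H3K27me3, regions called higher in the genome numbered 16 with DESeq2, 9 with library totals, 4 per covered length and 0 to 1 without 1 library. Regions called lower numbered 17 with DESeq2, 2 per covered length, 0 with an island in at least 2 libraries and 0 to 6 without 1 library. DESeq2 called 24 gene windows higher and 26 lower. The Pcdhg share difference (-7.88 percentage points) ran between -10.4 and -5.38 without 1 library and was -3.48 with equal island numbers, and its rpm difference (-68.5) ran between -115.2 and -21.8 and was -14.0. The Pcdha difference changed sign: the covered share (-1.14 percentage points) became 0.343 with islands of at least 50 reads, 0.647 with equal island numbers and -3.66 to 1.37 without 1 library, and the rpm difference (0.0487) ran between -45.1 and 45.2. At the variable exon starts 1 gene was lost and 1 gained, and 0 to 3 spans were lost without 1 library. Per covered length the Pcdha9 to Pcdha10 region gave -0.059, Pcdhac2 -0.19 and the Pcdhga9 to Pcdhga11 region 0.011. Pcdhac2 gave -0.014 with an island in at least 2 libraries and -0.19 to 0.20 without 1 library, Pcdhgc3 -0.014 to 0.18 and Pcdhgc4 -0.46 to 0.052. The cause of these changes was not tested.

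Libraries share numbers between genotypes, but their deviations did not go together (correlations -0.05 to 0.05), and the main fits did not pair them. A single correlation per comparison cannot show whether libraries of equal number share a batch or preparation. With a replicate block, edgeR called 2 H3K27me3 gene windows higher and 1 lower and 0 regions lower in the genome, 0 of them members, and still 21 Pcdhg genes for H3K27ac, while Wapl and Cd14 no longer passed.

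With 2 libraries a group no permutation test can fall below 0.33, and the low reads per island limit the precision at single exons. Reads outside islands were not seen.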

Other observations

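H3K27me3 islands also lay between the clusters, outside all members. A narrow island of 0.4 kb between Pcdha and Pcdhb (chromosome 18, 37239801 to 37240200) had 25 and 27 reads in KO, none in WT replicate 1 and 17 reads in WT replicate 2. It was denser than 93.6% to 98.7% of the islands of the libraries that had it. Past Taf7, before Pcdhga1, an island had 94 reads in KO replicate 1, none in KO replicate 2, and 73 and 46 reads in WT. Neither place was tested.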
